A study of Homo sapiens with 2 samples.

Results

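The genes described here encode SR proteins, hnRNPs and related RNA-binding proteins that regulate splicing. They were taken as 43 named genes and looked up by symbol among 57736 listed genes. Of these, 42 were matched: 13 genes of the SR family, 20 hnRNP genes and 9 genes of related proteins. SRSF8 was not matched by symbol, so it has no value. All 42 were detected, that is, they reached 1 TPM (a level per transcript length, scaled to the same total in each library) in replicate 1 and in replicate 2.

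SR proteins bind exonic enhancers through RNA recognition motifs and recruit the spliceosome through domains rich in arginine and serine. hnRNPs coat nascent transcripts, and many of them oppose SR proteins at nearby sites. Many genes of both kinds limit their own output by splicing in exons that send the transcript to nonsense-mediated decay (NMD). In heat-shocked human cells some SR proteins gather with satellite transcripts in nuclear stress bodies, and SRSF10, once dephosphorylated, acts as a splicing repressor.

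Poly(A)+ RNA was sequenced from wild type HEK293T cells, a line of human embryonic kidney origin with the SV40 large T antigen. They were kept for 20 min at 43 °C and then 6 h at 37 °C by the labels, whereas the study's text gives a longer time of heating. By the labels there are 2 libraries, replicate 1 and replicate 2, in 1 group, from cells lysed separately. Genomic DNA is entered as the molecule in the labels, although the protocol there describes poly(A)+ RNA. Untreated cells are not analysed here, so the values are levels after recovery and differences between 2 libraries, and no change with heat shock was measured. Nothing in the labels says whether the cells were cultured separately, so the spread between the libraries may be technical.

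Replicate 1 held 22529828 expected counts and replicate 2 held 26890199. The shallowest member value was 352 counts (SRSF12, replicate 1), with a counting error of 5.33%, and the deepest was 42510 (HNRNPU, replicate 2), with 0.485%. These errors cover counting only. Of 17 matched kidney and epithelial markers, 9 were detected, among them VIM at 684 and 611 TPM. LRP2, a marker of the proximal tubule, was at 5.09 and 6.00 TPM. Other markers of this tubule were not detected, with CUBN at 0.08 and 0.15 TPM and AQP1 at 0.51 and 0.57 TPM. UMOD and CDH16, which mark other differentiated nephron cells, were listed at 0.

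The splicing regulators were among the most abundant transcripts of the cells. In both libraries 33 of the 42 genes (78.6%) had a TPM of at least 100, compared with 8.66% of the 15188 genes detected. The 33 were 11 SR genes, 16 hnRNP genes and 6 related genes. The median member lay at the 97.2 percentile of detected genes, and the lowest, SRSF12, at the 48.5 percentile. In bulk RNA, fewer cells that express a gene and less RNA per cell cannot be told apart.

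The hnRNP genes held most of this RNA. Their summed TPM was 0.992% ± 0.0552 of all TPM (SD, n = 2), the SR genes held 0.291% ± 0.0404, and the related genes held 0.466% ± 0.0122. The hnRNP sum was 3.63 times the SR sum in replicate 1 and 3.23 times in replicate 2, over 20 and 13 genes. Within the related class, NONO alone held 41.8% and 39.5% of the class TPM, whereas SRSF11, the SR gene of highest mean TPM, held 9.18% and 15.8% of its class and HNRNPA1 14.7% and 14.8% of the hnRNP class. Thus the SR and hnRNP classes were spread over many genes, and the related class rested on a few.

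**Figure D1:**
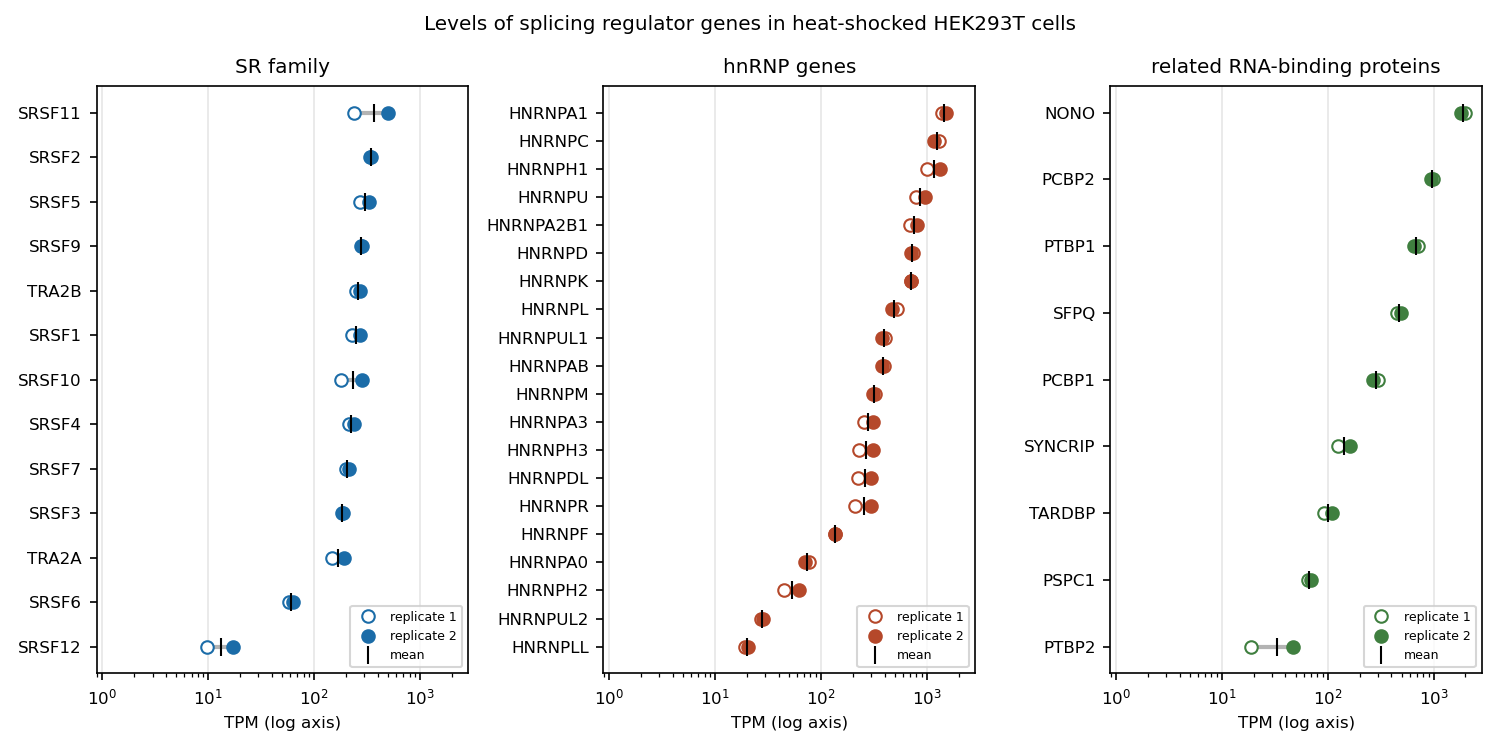
TPM of each gene on a log axis, in panels for the SR family, the hnRNP genes and the related proteins, with an open circle for replicate 1, a filled circle for replicate 2 and a bar at their mean. In both libraries 11 SR genes lie above 100 TPM, the hnRNP genes run from 20.0 (HNRNPLL) to 1463 (HNRNPA1), and the widest gaps between the libraries are those of PTBP2, SRSF11, SRSF12 and SRSF10.

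In the SR family 11 of 13 genes reached 100 TPM in each library. SRSF11, an SR-related protein that interacts with the splicing factor U2AF2, was listed at 241 TPM in replicate 1 and 503 in replicate 2. SRSF2, a component of nuclear speckles, was at 349 and 338 TPM. SRSF5 was at 271 and 335 TPM. Only for SRSF11 of these 3 were the libraries far apart, and its replicate 1 value lay below those of both others. SRSF9, a short SR protein found in nuclear stress bodies, was at 282 and 278 TPM. TRA2B, which binds GAA-rich exonic enhancers, was at 251 and 271 TPM. SRSF1, the best known SR protein and also a component of stress bodies, was at 230 and 275 TPM. The means of SRSF9, TRA2B and SRSF1 were 280 ± 3.07, 261 ± 14.4 and 253 ± 31.8 (SD, n = 2), so TRA2B and SRSF1 did not differ beyond their spread.

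The next SR genes followed without a gap. SRSF10 was at 179 and 287 TPM, SRSF4 at 215 and 238, and SRSF7 at 200.1 and 213. SRSF3, the smallest SR protein and an mRNA export adaptor, was at 188 and 184 TPM, and TRA2A at 149 and 192. The range of SRSF10 held those of SRSF4 and SRSF7. Below them were SRSF6 at 57.8 and 63.9 TPM and SRSF12 at 9.77 and 17.1, both apart from every other SR gene.

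Among the hnRNP genes, HNRNPA1, which silences exons and also shuttles to the cytoplasm, was the highest. It was listed at 1400.0 TPM in replicate 1 and 1526 in replicate 2. HNRNPC, which binds uridine tracts and keeps U2AF off cryptic sites, was at 1318 and 1163. HNRNPH1, which binds runs of G, was at 1009 and 1346. The libraries did not overlap between HNRNPA1 and the next genes, whereas HNRNPC and HNRNPH1 overlapped each other. HNRNPU, also known as scaffold attachment factor A, was at 787 and 960 TPM. HNRNPA2B1 was at 690 and 818 TPM, so its range overlapped that of HNRNPU.

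HNRNPD, also known as AUF1, was at 738 and 711 TPM, and HNRNPK, which binds runs of C, at 711 and 712. HNRNPL, which binds CA repeats, was at 526 and 467 TPM. HNRNPUL1 (409 and 381), HNRNPAB (396 and 379) and HNRNPM (326 and 315) came next. In these 6 genes the libraries lay close together, with the widest gap in HNRNPL. HNRNPA3 (254 and 308), HNRNPH3 (231 and 308), HNRNPDL (222 and 296) and HNRNPR (209 and 301) formed a group in which the ranges overlapped and replicate 2 was higher for each. The lowest hnRNP genes were HNRNPF at 136 in both libraries, HNRNPA0 at 76.6 and 71.4, HNRNPH2 at 44.5 and 61.7, HNRNPUL2 at 27.3 and 28.6, and HNRNPLL at 19.3 and 20.7.

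Of the related proteins, NONO, a paraspeckle protein of the DBHS family, was the highest of all 42 genes. It was listed at 1987 TPM in replicate 1 and 1810.5 in replicate 2. Its DBHS partners SFPQ (451 and 496 TPM) and PSPC1 (65.0 and 69.0 TPM) were lower. PCBP2, which binds poly(C), was at 996 and 956 TPM and PCBP1 at 299 and 271. PTBP1, the polypyrimidine tract binding protein, was at 717 and 658 TPM. SYNCRIP, also called hnRNP Q, was at 125 and 162 TPM, and TARDBP, which encodes TDP-43, at 92.0 and 109. PTBP2, the neuronal relative of PTBP1, was at 19.1 and 46.8 TPM, with scaled counts 2.10 times as high in replicate 2 as in replicate 1.

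Per read and per transcript the order differed. By CPM (counts scaled to the library total and not divided by length) HNRNPU was ranked 1 and NONO 2, and by TPM HNRNPU was ranked 6 and NONO 1. For 14 of the 42 genes the rank moved by more than 5 places. TPM is corrected for transcript length. The length that the quantifier deposited for a gene is an abundance-weighted mean over its transcripts, and it is not the exact divisor of the TPM. The median of this length over the members was 36.6% of the longest reference transcript, and for HNRNPH1, with 50 listed transcripts, it was 14.4%. So for members with several transcripts the TPM order rests in part on the transcript mix that the quantifier estimated. Plain differences in length between genes also move the ranks, and the part of each was not tested.

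Many transcripts of the SR genes are annotated for NMD. Of the 130 matched reference transcripts of SR genes, 20.0% are annotated as NMD targets and 29.2% as retained introns, and all 13 SR genes have at least 1 NMD transcript. For the hnRNP genes 10.1% of 247 transcripts are NMD targets, in 11 of 20 genes, and 23.1% are retained introns. Of the 12367 detected protein-coding genes, 42.0% have an NMD transcript, 10.3% of their transcripts are of this type, and 20.9% are retained introns. Of 358 transcripts of 44 core spliceosome genes, 8.94% are NMD targets, in 17 genes, and 36.0% are retained introns, a larger share than in the SR genes. A gene with more listed transcripts has more chances to hold an NMD transcript. The median number was 11 for the SR genes and 8 for the detected protein-coding genes. These are properties of the annotation, since the counts were given per gene and not per transcript.

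The deposited length of the members, the only readout of their transcript mix, differed little between the libraries. It is 1 mean per gene, so transcripts of like length can trade places without a change in it. Of 39 members with several transcripts, 1 differed in length by at least 1.1 times. This was HNRNPLL, at 1459.6 bases in replicate 1 and 1606 in replicate 2, just past the threshold, on 497 and 668 counts. The same difference was found for 20.4% of genes with several transcripts and 100 or more counts summed over the libraries, and for 12.6% of such genes at least as deep as SRSF12, which had the lowest summed count of the members (989). With a threshold of 5% in length there were 5 members, beside 40.3% of 12488 genes: HNRNPLL, TRA2B (886 and 946 bases) and HNRNPA3 (2152 and 2276) were longer in replicate 2, and SRSF12 (2024 and 1848) and PTBP2 (1409 and 1313) were shorter. HNRNPA0, HNRNPH2 and PCBP1 have a single listed transcript, so no mix can be read.

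The levels were then compared between the libraries, gene by gene. An exact two-sided binomial test of the counts, with Benjamini-Hochberg adjustment over 19714 genes, called 35 of the 42 members, 18 higher in replicate 2 and 17 higher in replicate 1. Of all genes tested 43.1% were called, 20.9% higher in replicate 2 and 22.2% higher in replicate 1, and of the 8014 genes at least as deep as SRSF12 72.5% were. With the adjustment limited to the 13840 genes of 100 or more summed counts, 58.4% of those were called. The test compares these 2 libraries and counts reads only, so at the depth of the members it passes small differences. The log2 ratio was under 0.5 in size for 38 members and under 0.25 for 30, with a median size of 0.19 beside 0.24 for all genes with 100 or more summed counts. A spread estimated from the same 2 libraries that are compared includes the difference under test. Few calls are then built in, and they do not decide whether the genes differ. With the dispersion that edgeR estimated from the pair of libraries (a coefficient of variation of 0.201), its exact test called 0 members, with 2 at an unadjusted p under 0.05, and 0.781% of all genes.

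The genes with the largest differences were all higher in replicate 2. PTBP2 had 473 and 1229 counts, a log2 ratio of 1.07 (replicate 2 over replicate 1), with an adjusted p of 2.14e-45 by the exact binomial test and 0.365 by the edgeR exact test. SRSF11 had 4938 and 11220 counts and a ratio of 0.88, with adjusted p = 6.62e-296 by the exact binomial test and 0.668 by the edgeR exact test. SRSF10, the splicing repressor of heat-shocked cells, had 2937 and 5450 counts and a ratio of 0.59 (exact binomial test, adjusted p = 1.44e-71). SRSF12, the closest relative of SRSF10, had 352 and 637 counts and a ratio of 0.55 (exact binomial test, adjusted p = 3.32e-08). HNRNPR had a ratio of 0.38 (exact binomial test, adjusted p = 2.80e-71), which became -0.08 when the GC trend described next was removed.

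The other genes of high level differed less. In the SR family SRSF5 had a log2 ratio of 0.23 (exact binomial test, adjusted p = 2.21e-12) and TRA2B one of 0.10 (exact, adjusted p = 0.00550). SRSF2 (-0.17, exact, adjusted p = 2.61e-13) and SRSF9 (-0.13, exact, adjusted p = 5.14e-05) were higher in replicate 1. With the GC trend removed, TRA2B changed sign (-0.18, exact binomial test, adjusted p = 3.67e-08) and SRSF9 no longer passed (-0.06, adjusted p = 0.164), and SRSF2 no longer did with the length trend removed as well (-0.04, adjusted p = 0.133). By class, 10 of 13 SR genes were called, 7 of them higher in replicate 2, while 8 hnRNP genes were higher in replicate 2 and 9 in replicate 1, beside the 72.5% called among genes of their depth. With the GC trend removed, 2 SR genes were higher in replicate 2 and 4 in replicate 1, and 3 and 12 hnRNP genes.

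Of the highest hnRNP genes, HNRNPA1 did not pass the exact binomial test (log2 ratio -0.004, adjusted p = 0.847), whereas it passed with scaling by library totals (0.04, adjusted p = 0.000326) and, in the other direction, with the GC trend removed (-0.10, adjusted p = 1.48e-18). HNRNPC was higher in replicate 1 (-0.28, exact binomial test, adjusted p = 1.67e-129). HNRNPH1 (0.31, adjusted p = 1.09e-83), HNRNPU (0.16, adjusted p = 1.10e-50) and HNRNPA2B1 (0.18, adjusted p = 5.63e-41) were higher in replicate 2 by the same exact test, and HNRNPU (-0.32) and HNRNPA2B1 (-0.05) had the opposite sign once the GC trend was removed. Of the related genes, NONO (-0.21, exact, adjusted p = 3.86e-78), PTBP1 (-0.28, exact, adjusted p = 2.47e-68), PCBP2 (-0.19, exact, adjusted p = 3.89e-33) and PCBP1 (-0.26, exact, adjusted p = 5.27e-33) were higher in replicate 1. With the GC trend removed PTBP1 was at -0.04 and PCBP1 at -0.08, and with the length trend removed as well neither passed the exact test (adjusted p = 0.835 and 0.0642). SFPQ, at -0.05 (exact, adjusted p = 0.00968), changed sign to 0.14 as a ratio of TPM. The genes that did not pass the test were SRSF4, SRSF6, SRSF7, HNRNPA1, HNRNPLL, HNRNPUL2 and PSPC1.

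The differences between the libraries went with the base composition of the transcripts. Over the 42 genes the log2 ratio and the GC content of the reference transcripts had r = -0.67 and rho = -0.72, and over 13544 genes with 100 or more summed counts r was -0.64. These are correlations across genes that share the same 2 libraries, and genes are not replicates. Of the 14 members of lowest GC (37.0 to 41.7%), 12 had a ratio above 0 and the median was 0.24. Of the 14 of highest GC (46.3 to 59.1%), 1 had a ratio above 0 and the median was -0.18. The 14 between them had a median of 0.08, with 8 above 0. The median GC of the members was 43.8%, beside 49.2% for all genes tested.

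**Figure D2:**
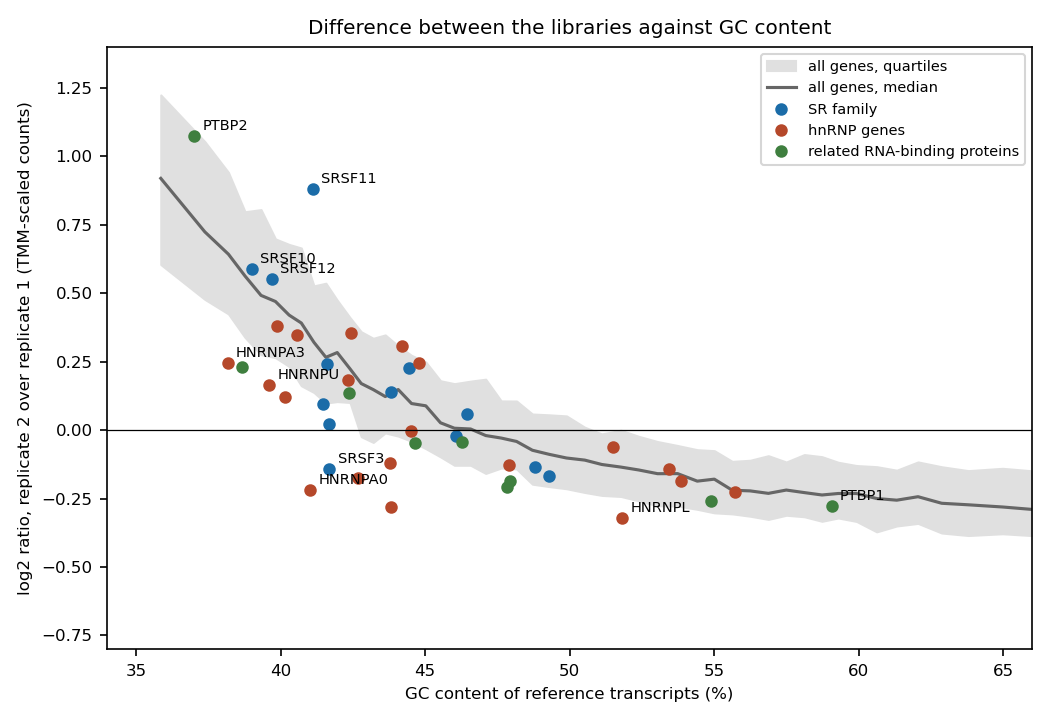
Log2 ratio of TMM-scaled counts, replicate 2 over replicate 1, against the GC content of reference transcripts in percent, with 1 point per splicing regulator coloured by class and the median and quartiles of all genes in 50 classes of GC as a line and a band. Of the 14 genes of lowest GC 12 lie above 0, and of the 14 of highest GC 1 does, SRSF11 lies above the band, and HNRNPA3, HNRNPU, SRSF3 and HNRNPA0 lie below the line.

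When the GC trend of all genes was removed, 29 members were called, 6 higher in replicate 2 and 23 higher in replicate 1. Of all genes 26.7% were called, 2558 higher in replicate 2 and 2536 in replicate 1. Of 13544 genes with 100 or more summed counts, 4679 were called, 2266 and 2413. The share at the members' depth was not taken here, and deeper genes are called more readily. SRSF11 then had a log2 ratio of 0.55 and PTBP2 one of 0.30. SRSF10 (0.05) and SRSF12 (0.08) came close to 0 (exact binomial test, adjusted p = 0.235 and 0.643), while with the length trend removed as well SRSF10 was at 0.15 and passed (exact, adjusted p = 9.50e-05). HNRNPA0 (-0.56), SRSF3 (-0.41), HNRNPC (-0.41) and HNRNPA3 (-0.40) were then the farthest below 0. GC was read over all reference transcripts, and the matched one of HNRNPA0 has 8713 bases, beside a deposited length of 2965. Its GC may thus not be that of the sequence quantified, and its place here rests on it. SRSF11 was thus the gene whose ratio stood highest above the trend of genes of like composition. The part of base composition in the differences was not tested further.

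PTBP1 and PTBP2 lie at opposite ends of this range, with 59.1% and 37.0% GC over their transcripts. The 2 proteins are close relatives, and the stretch of coding sequence shown here was chosen because it encodes the same residues in both genes at the largest difference in GC. Both lie in exons on the plus strand of GRCh37, PTBP1 at chr19:808680-808727 and PTBP2 at chr1:97278402-97278449, and capitals mark the 13 of 48 bases that differ.
PTBP1: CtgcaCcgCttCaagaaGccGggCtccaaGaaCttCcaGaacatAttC
PTBP2: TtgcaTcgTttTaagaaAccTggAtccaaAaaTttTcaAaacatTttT
The stretch has 52.1% GC in PTBP1 and 27.1% in PTBP2, and the whole coding sequences have 60.5% and 41.3%. PTBP1 held 97.4% of the TPM of the pair in replicate 1 and 93.4% in replicate 2, that is 37.6 and 14.1 times the TPM of PTBP2.

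Paired relatives were compared in the same way. One gene held over 90% of the TPM of its pair in NONO with PSPC1 (96.6%), HNRNPL with HNRNPLL (96.1%), HNRNPH1 with HNRNPH2 (95.7%), SRSF10 with SRSF12 (94.6%) and HNRNPUL1 with HNRNPUL2 (93.4%). The last share leaves out HNRNPUL2-BSCL2, a gene that shares sequence with HNRNPUL2 and was listed at 32.7 TPM in replicate 1 and 29.8 in replicate 2. Pairs with a less uneven share were HNRNPD with HNRNPDL (73.7% ± 4.42, SD, n = 2), HNRNPA1 with HNRNPA2B1 (66.1% ± 1.33), HNRNPR with SYNCRIP (63.8% ± 1.79) and TRA2B with TRA2A (60.6% ± 2.97). By counts HNRNPD held 63.4%, HNRNPA1 58.1%, HNRNPR 57.6% and TRA2B 54.1%, so each of these pairs was nearer to even. PCBP1 held 22.6% ± 0.699 of the TPM of PCBP1 and PCBP2. SFPQ held 20.0% ± 2.13 of that of SFPQ and NONO. The shares of PCBP1 and SFPQ were 34.02% and 33.2% by counts, and those of SRSF10, HNRNPH1 and HNRNPUL1 were 89.4%, 88.5% and 87.7%. SRSF3 and SRSF7 (47.4% ± 1.39) and SRSF1 and SRSF9 (47.3% ± 3.42) were near even, and by counts the first gene was the larger of each (55.9% and 61.0%).

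**Figure D3:**
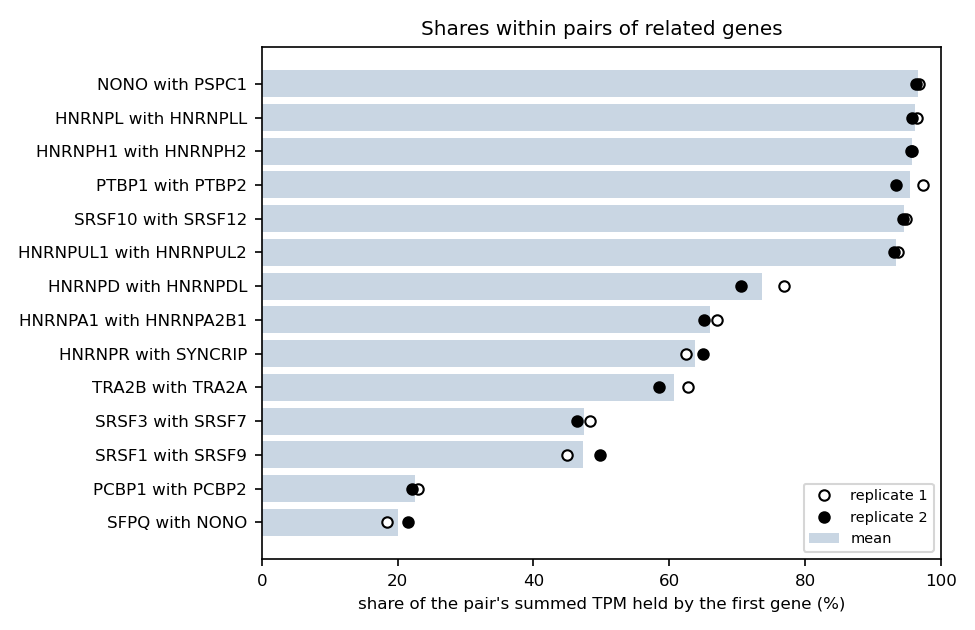
Share in percent of the summed TPM of a pair held by the first gene, as a bar for the mean, an open circle for replicate 1 and a filled circle for replicate 2. In 6 pairs the first gene holds over 90%, with HNRNPUL2-BSCL2 left out for HNRNPUL1 with HNRNPUL2. The libraries are farthest apart for HNRNPD with HNRNPDL, at 76.8% and 70.6%.

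Some of the hnRNP genes have many processed copies in the genome, to which the quantifier can assign their reads. The tables list 145 pseudogenes named after 25 of the members, 90 of them with a count, and these held 1.049% ± 0.0682 of the reads of members and pseudogenes together (SD, n = 2). HNRNPA1 has 74 such pseudogenes, with 1.27% ± 0.174 of the reads. For HNRNPC, 9 pseudogenes held 3.30% ± 0.213. HNRNPA3 differed from these, since 16 pseudogenes held 20.9% ± 0.618 of the reads and 44.4% ± 0.488 of the TPM. Nearly all of this was at HNRNPA3P6 (chr3:75263782-75264787), a processed pseudogene listed at 2591 and 3570 counts beside 9750 and 14266 for HNRNPA3 (chr2:178077422-178088687).

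The libraries were read at 50 bases, so identical stretches of that length are the unit in which a read cannot be placed. Of the 957 stretches of 50 bases in HNRNPA3P6, 76.6% are found in transcripts of HNRNPA3. Shown are a stretch that both genes hold and another in which 1 base tells them apart, in capitals, given as the substitution G35A (HNRNPA3 base, position from the 5′ end of the stretch, HNRNPA3P6 base). All are exon sequence on the plus strand of GRCh37, at chr2:178080276-178080325 and chr3:75263782-75263831 for the identical pair and at chr2:178081244-178081293 and chr3:75264267-75264316 for the other.
HNRNPA3, identical stretch: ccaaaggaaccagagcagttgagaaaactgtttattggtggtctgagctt
HNRNPA3P6, identical stretch: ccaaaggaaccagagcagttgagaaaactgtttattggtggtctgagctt
HNRNPA3, stretch with G35A: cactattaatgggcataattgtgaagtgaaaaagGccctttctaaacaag
HNRNPA3P6, stretch with G35A: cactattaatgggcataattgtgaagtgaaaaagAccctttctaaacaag
For HNRNPC the copy with most counts was HNRNPCP2, at 999 and 1094, of which 53.6% of stretches are found in HNRNPC. A pair that differs by C35T is shown for it, from chr14:21702302-21702351 on the minus strand and chr2:190788063-190788112 on the plus strand.
HNRNPC, stretch with C35T: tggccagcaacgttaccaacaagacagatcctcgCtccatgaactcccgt
HNRNPCP2, stretch with C35T: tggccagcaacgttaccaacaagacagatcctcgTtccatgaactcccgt
How many reads of the copies came from the copies themselves was not tested.

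Counting every gene that shares at least 50 distinct stretches of 50 bases, 19 members shared sequence with 56 genes, and for 7 members these genes held over 1% of the reads. The largest share was that of HNRNPUL2, whose readthrough gene HNRNPUL2-BSCL2 was listed at 2359 and 2443 counts beside 2484 and 2939 for HNRNPUL2. For PCBP2 a long noncoding gene that overlaps it held 1943 and 2060 counts, and the posterior SD that the quantifier gave for PCBP2 was 730 and 906 counts. This was 4.16% and 4.76% of its count, while the posterior SD was under 1% in both libraries for 40 members. HNRNPA3 had the next largest share after HNRNPUL2, at 21.2% and 20.2%. The levels of HNRNPUL2, HNRNPA3 and PCBP2 were read as uncertain.

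Of these 7 members, HNRNPU had the widest gap in this share between the libraries. The identifier ENSG00000188206, singled out after its values were seen, lists 3 transcripts that the reference annotation used here places within HNRNPU, 2 as NMD targets and 1 as a retained intron. It held 1454 counts in replicate 1 and 5178 in replicate 2, that is 4.52% and 10.9% of the reads of both identifiers. Its log2 ratio was 1.53, beside 0.16 for HNRNPU, and its transcripts have 35.5% GC, where genes of like GC had a median ratio of 0.92. The ratio at this identifier was thus the larger, and the difference of the ratios was not tested.

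**Figure D4:**
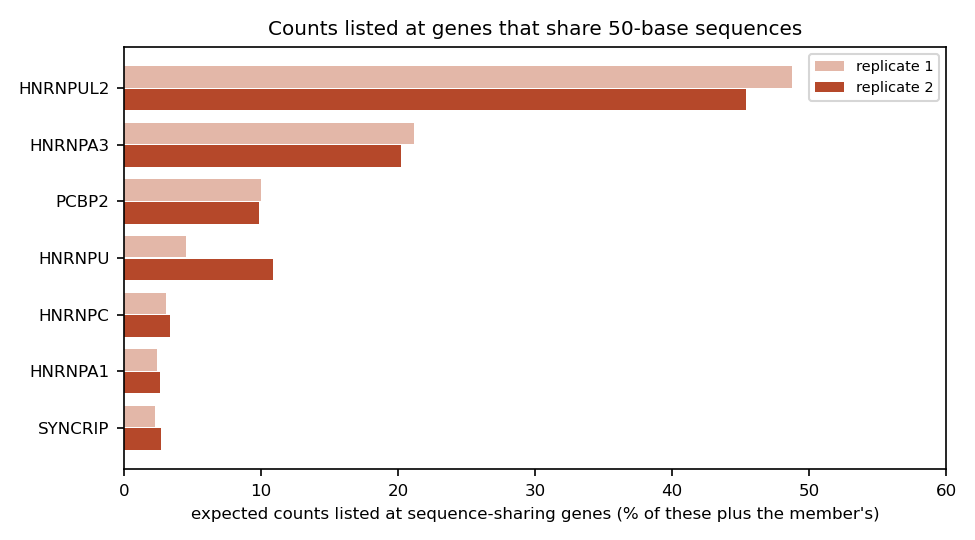
Expected counts listed at genes that share at least 50 distinct sequences of 50 bases with a splicing regulator, in percent of these counts plus those of the regulator, with a light bar for replicate 1 and a dark bar for replicate 2. HNRNPUL2 (48.7% and 45.4%) and HNRNPA3 (21.2% and 20.2%) have the largest shares, and HNRNPU goes from 4.52% to 10.9%.

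Other genes of the splicing pathway were described in the same way. Of 44 core spliceosome genes, 37 were called by the exact binomial test, 11 higher in replicate 2 and 26 in replicate 1, beside 43.1% of all genes and 72.5% of genes at least as deep as SRSF12. The median log2 ratio was -0.18 and the median GC 48.1%, and with the GC trend removed 4 were higher in replicate 2 and 28 in replicate 1. SNRPD2 (638 and 550 TPM), an Sm protein, SNRPA (548 and 479), a U1 protein, and SF3A1 (525 and 464), a U2 protein, were the highest, each higher in replicate 1. CWC22 (1.13) and DDX46 (0.64) were among the genes with the largest log2 ratios. Of the other splicing regulators, 62 of 63 named genes were matched and 55 tested, and 42 of these were called, 24 higher in replicate 2 and 18 in replicate 1 (20 and 12 with the GC trend removed), with a median of 0.01. RBMX (768 and 754 TPM), EWSR1 (749 and 712) and DDX5 (666 and 748) were the highest, and MBNL3 (1.24), SREK1 (1.24) and MBNL2 (1.08) had the largest ratios. The SR, hnRNP and related genes had a median ratio of 0.01, and all genes tested one of 0.0003.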

How the data were processed

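Poly(A)+ RNA of 2 libraries of heat-shocked HEK293T cells was read at 50 bases. The submitters' processing notes name Trimmomatic 0.36, STAR 2.6.1c, RSEM 1.3.1 and the builds hg19 and GRCh37.p13, whereas the methods name featureCounts. The tables carry RSEM's columns. In the deposited expected counts, a read that maps to several genes is split between them. Deposited TPM values are corrected for transcript length and sum to a fixed total, and deposited FPKM values for length and the reads of the library. Lengths in bases, posterior SDs and credibility bounds were deposited by the authors as well. A table of pooled values was within 0.5 read of the sum of the libraries for 35 of 42 members. The strand setting of the counting was not given in the sources used, so overlapping and antisense genes are uncertain.

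Symbols, positions and transcripts came from a GENCODE annotation and genome of GRCh37, matched to 96.1% of 57736 gene identifiers and 91.5% of transcripts. Expected counts were rounded for the exact two-sided binomial test, conditional on the summed count, with library sizes from edgeR 4.0.16 (TMM), and Benjamini-Hochberg adjustment over genes with 10 or more summed counts at a threshold of 0.05. Log2 ratios used a pseudocount of 0.5 count. GC trends were medians in 50 classes of genes. Scripts used Python 3.11.15, SciPy 1.17.1, R 4.3.3 and DESeq2 1.42.0. Only the exact binomial test was tested on simulated counts, which had counting error but no further spread between libraries and no GC trend. Groups came from the labels. Members and lists were chosen with earlier results of these data known. Values, ratios and tests were given for the 5 highest members of each class and the 5 largest ratios, and the 3 highest and 3 largest ratios of the core spliceosome and other regulator lists. SRSF8, SRSF2 with SRSF8 and untreated cells are not analysed here, and some genes that these rules name are not reported here. Alternatives were other thresholds, units, scalings, filters, tests and trends, and leaving out each replicate.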

Additional observations from a re-analysis of the deposited data

How the results depend on the processing

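The number of detected members was 42 without either replicate, and the class shares of TPM ran from 0.262 to 0.319% (SR), 0.953 to 1.03% (hnRNP) and 0.458 to 0.475% (related). The hnRNP share was 1.12% by expected counts. The pseudogene share ran from 1.00 to 1.097% of reads and was 1.82% of TPM. Calls between the libraries fell from 35 members, 37 core spliceosome genes and 42 other regulators to 0, 0 and 0 with the edgeR exact test and estimated dispersion (2, 2 and 7 at an unadjusted p under 0.05), to 2, 3 and 9 with an assumed coefficient of variation of 0.1, and to 1, 2 and 3 where a log2 ratio of at least 1 was required as well. The estimated dispersion came from the pair of libraries that was tested, so the fall with it was built in. Library totals gave 37 members, 21 higher in replicate 2. Members that differed in length were 5 at a threshold of 5% and 0 at 20%, beside 40.3% and 6.95% of genes. Sign changes are given first for genes that passed the test in either setting. With the GC trend removed, the log2 ratio changed sign for SRSF7 (-0.25), TRA2A (-0.025), TRA2B (-0.18), HNRNPA2B1 (-0.052), HNRNPA3 (-0.40), HNRNPH3 (-0.055), HNRNPLL (-0.31), HNRNPM (0.016), HNRNPR (-0.083), HNRNPU (-0.32), SYNCRIP (-0.35) and TARDBP (-0.094). With the length trend removed as well, it did for SRSF7 (-0.21), SRSF9 (0.019), TRA2B (-0.10), HNRNPA2B1 (-0.039), HNRNPA3 (-0.40), HNRNPAB (0.0057), HNRNPLL (-0.30), HNRNPM (0.10), HNRNPR (-0.11), HNRNPU (-0.32), SYNCRIP (-0.36) and TARDBP (-0.11). Library totals turned HNRNPA1 (0.045) and SFPQ (0.0029), and ratios of TPM turned HNRNPK (0.0022) and SFPQ (0.14). Of genes that did not pass, the GC trend turned HNRNPUL2 (0.07), library totals SRSF4 (0.03) and PSPC1 (0.0065), and TPM HNRNPA1 (0.12), SRSF4 (0.15), HNRNPUL2 (0.07) and PSPC1 (0.09). The cause was not tested. No paired analysis was possible because the labels define a single group of samples. Leaving out a replicate leaves no ratio between libraries, so this was not run for the ratios, calls and lengths. The number of libraries limits the precision of every SD.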
